A study of Mus musculus with 12 samples.

Results

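The matrix metalloproteinases described here are 10 genes, chosen by symbol to cover the collagenases (Mmp8 and Mmp13), the gelatinases (Mmp2 and Mmp9), the stromelysins (Mmp3, Mmp10 and Mmp11), the macrophage elastase Mmp12, the membrane-type enzyme Mmp14 and Mmp19. They are 10 of the 57010 Ensembl gene IDs in the count tables and 10 of the 23 mouse genes of the family. Reads were counted for 9 of them in at least 1 library. Of these, 7 passed the filter on low counts and were tested, as were 14253 genes in all. Mmp8 and Mmp9 were below the filter, and Mmp19 was listed at 0 in all 12 libraries. Every one of the 2414 X-linked gene IDs in the tables (placed with GENCODE M21) was at 0 too, so the tables say nothing of X-linked genes.

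Messenger RNA was sequenced from primary chondrocytes of wild-type mice, the cells that build cartilage. There were 4 control libraries, 4 from cells transfected with a wild-type plasmid (SIRT5_WT here, read as wild-type SIRT5) and 4 from cells transfected with a plasmid for the SIRT5F101L mutant (SIRT5_F101L). SIRT5 is a mitochondrial sirtuin that removes malonyl groups from lysine, and the series asks how it acts on chondrocyte metabolism and osteoarthritis. What the control cells received, the age of the mice and the time after transfection are not stated in the labels, so in any comparison with control the transfection and the SIRT5 sequence it carried cannot be told apart. Nothing in the labels says that the 4 libraries of a group came from separate cultures or animals, and p-values then measure only the spread between these libraries.

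Matrix metalloproteinases (MMPs) are zinc-dependent enzymes that are made as inactive proenzymes and cut the proteins of the extracellular matrix once the propeptide is removed. Collagenases cut intact fibrillar collagen, gelatinases take the unwound chains further, and stromelysins cut proteoglycans and fibronectin and can activate procollagenases. In cartilage MMP13 is known as the main collagenase acting on type II collagen, MMP3 as an abundant product of cells given inflammatory cytokines, and MMP14 as the surface enzyme that activates pro-MMP2 together with TIMP2.

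Libraries held 15095357 to 24242139 counts. Levels are given throughout as CPM, the count scaled to a common library size with TMM factors, and 1 count was worth 0.0401 to 0.0649 CPM. Sirt5 itself had 51, 27 and 53 counts over the 4 control, SIRT5_WT and SIRT5_F101L libraries, and neither plasmid group passed a test of its level against control (exact 2-sided permutation p 0.0571 and 0.886, 0.129 and 0.886 adjusted over 3 comparisons). SIRT5_F101L replicate 1 stood apart from its group: on the second principal component it lay at 20.3, beside SIRT5_WT replicates 2 to 4 at 12.5 to 20.1, with SIRT5_WT replicate 1 at -1.07, whereas the other SIRT5_F101L libraries lay at -23.5 to -17.0. Results between the plasmid groups are therefore given with and without SIRT5_F101L replicate 1. That library was singled out from these same values and lay beside SIRT5_WT, so leaving it out favours calls between the plasmids. The chondrocyte markers, 11 of 11 detected, summed to 9273 to 11625 CPM in control, 2839 to 2951 in SIRT5_WT and 2310 to 2555 in SIRT5_F101L, a sum made up mostly of Col2a1, Col11a1 and Comp. With SIRT5_WT 2 of them rose and 9 fell, beside 28.7% and 28.1% of all genes, and with SIRT5_F101L 1 rose and 9 fell, beside 30.0% and 30.7%. Hapln1 rose by 0.25 and 0.18 on the log2 scale, Acan by 0.47 with SIRT5_WT, and the cartilage regulator Sox9 fell by 0.20 and 0.34. In bulk RNA, fewer cells of a type and less RNA per cell cannot be told apart.

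The sequences just before the start of 5 members are shown because 3 of these genes rose with both plasmids (Mmp3, Mmp10 and Mmp13) and the other 2 (Mmp14 and Mmp11) fell. Each is the 250 bases before the RefSeq start on GRCm38.p6, read 5′ to 3′ on the gene's own strand. Capitals mark matches to AP-1 (TGANTCA), the TATA box (letters TATAAA), PEA3 (letters AGGAAG) and RUNX (letters AACCACA), searched on both strands; no 2 matches overlapped. Mmp3 lies at chr9:7445572-7445821 (+), Mmp10 at chr9:7502092-7502341 (+), Mmp13 at chr9:7272264-7272513 (+), Mmp14 at chr14:54431348-54431597 (+) and Mmp11 at chr10:75932503-75932752 (-). The deposited counts were made on a later build, GRCm39, so these positions belong to the RefSeq table and not to the count files.
Mmp3: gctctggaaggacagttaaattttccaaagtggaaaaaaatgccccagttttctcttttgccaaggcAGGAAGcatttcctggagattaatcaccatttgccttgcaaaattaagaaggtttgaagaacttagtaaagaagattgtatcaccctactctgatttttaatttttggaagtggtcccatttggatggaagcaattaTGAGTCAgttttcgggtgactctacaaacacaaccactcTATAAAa
Mmp10: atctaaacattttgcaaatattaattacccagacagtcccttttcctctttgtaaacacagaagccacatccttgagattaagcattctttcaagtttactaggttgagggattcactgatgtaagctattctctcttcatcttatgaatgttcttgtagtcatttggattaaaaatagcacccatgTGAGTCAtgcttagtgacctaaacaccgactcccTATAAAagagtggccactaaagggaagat
Mmp13: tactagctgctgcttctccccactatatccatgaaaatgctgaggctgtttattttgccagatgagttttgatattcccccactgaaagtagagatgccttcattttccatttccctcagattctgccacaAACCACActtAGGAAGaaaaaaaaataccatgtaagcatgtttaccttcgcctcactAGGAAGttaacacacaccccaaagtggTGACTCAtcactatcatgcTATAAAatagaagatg
Mmp14: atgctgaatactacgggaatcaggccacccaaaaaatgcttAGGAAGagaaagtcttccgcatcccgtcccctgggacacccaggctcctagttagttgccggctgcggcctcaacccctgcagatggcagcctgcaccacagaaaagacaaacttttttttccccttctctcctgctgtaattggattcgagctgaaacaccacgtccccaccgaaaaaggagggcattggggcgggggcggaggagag
Mmp11: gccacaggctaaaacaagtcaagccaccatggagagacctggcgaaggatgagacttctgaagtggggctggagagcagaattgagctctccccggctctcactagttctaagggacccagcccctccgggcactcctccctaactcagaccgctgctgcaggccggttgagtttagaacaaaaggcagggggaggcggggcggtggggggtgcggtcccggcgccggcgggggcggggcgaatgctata

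AP-1 is the site bound by FOS and JUN family dimers, PEA3 the site of ETS factors, and RUNX the site of RUNX2, all long studied in collagenase promoters. Counting back from -1, the base before the start, the AP-1 match lay at -46 to -40 in Mmp3, at -63 to -57 in Mmp10 and at -35 to -29 in Mmp13. Each of these 3 windows also held TATAAA downstream of it, starting at -7, -29 and -16. Mmp13 was the member with a RUNX match, at -119 to -113, followed by PEA3 matches at -109 to -104 and -62 to -57. Mmp12, which passed in neither comparison, held an AP-1 match at -44 to -38 before the second of its annotated starts and none before the first, and Mmp8 held none. Mmp14 held a single PEA3 match, at -209 to -204, and Mmp11 held none of the motifs searched. Of the 32851 RefSeq promoters of the same length, 6.75% held the AP-1 letters, 12.4% TATA, 29.5% PEA3, 4.40% RUNX and 3.90% the NF-kB consensus, which no member window held. A match is a description of letters and shows no binding. Sequences were matched for 7 members; Mmp2, Mmp9 and Mmp19 had no entry in the table used.

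**Figure D1:**
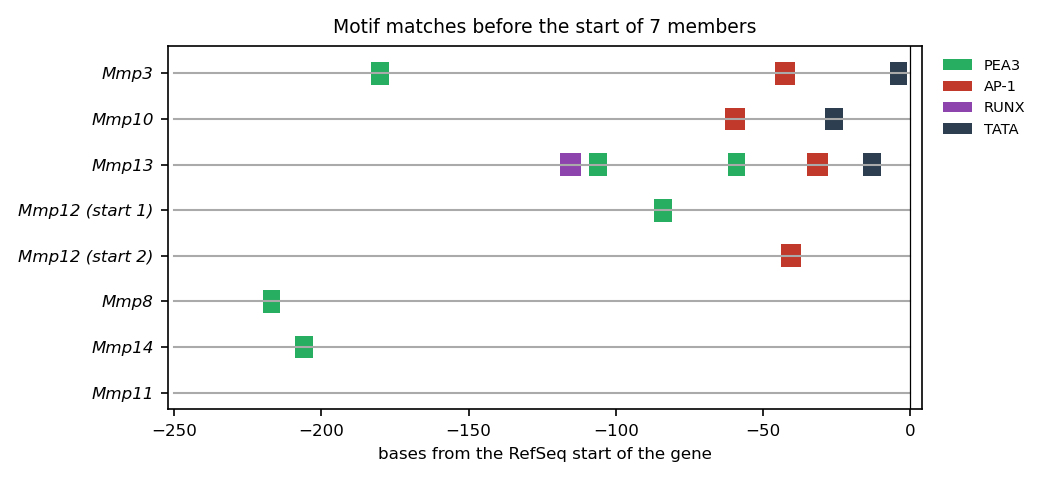
Matches to the PEA3, AP-1, RUNX and TATA motifs in the 250 bases before the RefSeq start of 7 members (x axis, bases from the start; one line per annotated start, with 2 starts for Mmp12). Mmp3, Mmp10 and Mmp13 each hold an AP-1 and a TATA match; Mmp12 holds AP-1 at 1 of its 2 starts and no TATA, and Mmp8, Mmp14 and Mmp11 hold neither.

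A genomic neighbourhood holds 5 of the 10 members. They are Mmp13, Mmp12, Mmp3, Mmp10 and Mmp8, in that order, and sit among 10 MMP genes on chromosome 9 with 0 protein-coding genes of another kind between them. AP-1 letters were found before a start of 8 of these 10 genes and of 0 of the 8 family genes elsewhere that had an entry. Mmp1a, Mmp7 and Mmp20 of the cluster held both AP-1 and TATA letters, yet had 30, 2 and 1 reads over all 12 libraries. Mmp24, Mmp25 and Mmp28, which lie elsewhere, held neither. In the cluster, Mmp13 and Mmp3 rose in each plasmid group against control, and Mmp12 and Mmp27 did not pass. Mmp10 and Mmp1b rose too, but they reached the filter on low counts (0.531 CPM in at least 4 libraries) only through the plasmid groups and could enter only by rising. Of the 10 family genes tested elsewhere, 3 rose and 5 fell with SIRT5_WT, and 2 rose and 4 fell with SIRT5_F101L. Over all genes tested, 28.7% rose and 28.1% fell with SIRT5_WT, and 30.0% and 30.7% with SIRT5_F101L. Mmp2, Mmp14, Mmp11 and Mmp23 fell in each, Mmp24 and Mmp25 rose in each, again through the filter, and Mmp28 rose with SIRT5_WT, so genes outside the cluster moved both ways. These genes were set side by side after the values were known, and the place of a gene was not tested.

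To ask how each plasmid moved the members, all 12 libraries were fitted together and each plasmid group was compared with the same 4 controls. With SIRT5_WT, 3 members rose (Mmp3, Mmp10 and Mmp13) and 3 fell (Mmp2, Mmp14 and Mmp11), at a Benjamini-Hochberg adjusted p under 0.05 over all genes in edgeR's quasi-likelihood fit. Of all genes tested, 56.8% passed in that comparison, 28.7% higher and 28.1% lower. With SIRT5_F101L the count was again 3 higher and 3 lower, against a background of 60.7%, with 30.0% higher and 30.7% lower. Mmp10 reached the filter only through the plasmid groups and so had to rise to be tested; of the 6 other members, 2 rose and 3 fell in each comparison. The median log2 fold change over the 7 tested members was -0.25 and 0.09, beside -0.01 and -0.02 over all genes. Because more than 1 gene in 2 passed, the count of members that passed is near what the whole table gives, and the sizes of the changes are the description that follows. The 3 called rises and 3 called falls had no overlap between the groups' libraries, as was the case for 53.5% of all genes with SIRT5_WT (26.9% higher, 26.5% lower) and 51.3% with SIRT5_F101L (25.7% in either direction).

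Mmp13 (ENSMUSG00000050578), the main collagenase of cartilage, measured 79.7, 95.3, 92.0 and 78.2 CPM in control replicates 1 to 4. It measured 512, 489, 489 and 542 CPM in SIRT5_WT and 626, 655, 599 and 565 CPM in SIRT5_F101L. Every plasmid library lay above every control library. Group means were 86.3 ± 8.64, 508 ± 25.0 and 611 ± 38.5 CPM (SD, n = 4). The log2 fold change against control was 2.56 (SE 0.07, edgeR adjusted p 1.67e-16) with SIRT5_WT and 2.82 (SE 0.08, edgeR adjusted p 3.38e-17) with SIRT5_F101L. Its rises ranked 287th and 245th of 14253 from the top.

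Mmp8 (ENSMUSG00000005800), the collagenase stored in neutrophil granules, was barely counted. It had 2, 1, 3 and 2 reads in control, 5, 7, 3 and 3 in SIRT5_WT and 3, 2, 8 and 7 in SIRT5_F101L. Most of these values are at or near the floor of 3 counts, under which values have no order. Exact 2-sided permutation tests over the 70 arrangements of 8 libraries gave p 0.0571 for each plasmid against control and 0.971 between the plasmids (0.114, 0.114 and 0.971 adjusted over the 6 such tests of Mmp8 and Mmp9), where 0.0286 is the smallest p the design allows.

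Mmp3 (ENSMUSG00000043613), stromelysin-1, had the widest change of the set. Control libraries held 289, 291, 292 and 335 reads, or 16.8, 14.7, 15.5 and 18.3 CPM. SIRT5_WT libraries held 1420.05, 1469, 1494 and 1747 CPM, and SIRT5_F101L libraries 2107, 1887, 1789.6 and 1738 CPM. No plasmid library came near the control range, and the plasmid groups overlapped each other only through SIRT5_WT replicate 4 and SIRT5_F101L replicate 4. Means were 16.3 ± 1.55, 1533 ± 146 and 1880.5 ± 163 CPM (SD, n = 4). On the log2 scale it rose by 6.55 with SIRT5_WT and 6.85 with SIRT5_F101L (SE 0.10 for both, edgeR adjusted p 3.29e-20 and 1.90e-20), the 19th and 15th highest of 14253. A copy of at least 95% identity elsewhere covers 22.9% of its transcript, in the predicted genes Gm15242 and Gm15244, so reads could have been shared with them.

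Mmp10 (ENSMUSG00000047562), stromelysin-2, moved in the same direction from a far lower base. Its reads numbered 1, 11, 2 and 3 in control, 116, 102, 100 and 135 in SIRT5_WT and 143, 93, 177 and 96 in SIRT5_F101L. Control replicate 2 held most of the control reads. Means were 0.221 ± 0.228, 6.24 ± 0.596 and 6.55 ± 0.997 CPM (SD, n = 4), a rise of 4.73 and 4.80 on the log2 scale (SE 0.32 and 0.31, edgeR adjusted p 9.24e-11 and 5.95e-11). The size rests on that control library: without control replicate 2 the values were 5.74 and 5.81, both still called.

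Mmp11 (ENSMUSG00000000901), stromelysin-3, is grouped with the stromelysins by name, but unlike Mmp3 and Mmp10 it is activated inside the cell by furin and cuts few matrix proteins. It went the other way. Control libraries held 43.2, 33.5, 34.1 and 39.6 CPM, SIRT5_WT libraries 15.2, 17.2, 16.2 and 16.8, and SIRT5_F101L libraries 17.5, 14.3, 14.5 and 13.5. All 8 plasmid libraries lay below all 4 controls. Means of 37.6 ± 4.62, 16.4 ± 0.872 and 14.96 ± 1.73 CPM (SD, n = 4) gave log2 fold changes of -1.20 and -1.33 (SE 0.10 for both, edgeR adjusted p 2.35e-09 and 5.02e-10). In GENCODE M21, 5.58% of its exon bases lie in exons of another gene, Chchd10.

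Mmp2 (ENSMUSG00000031740), gelatinase A, also fell. Its level was 147, 130, 143 and 133 CPM in control, 64.3, 59.8, 63.4 and 58.3 in SIRT5_WT and 66.7, 73.7, 72.05 and 72.7 in SIRT5_F101L. The 3 groups did not overlap, with SIRT5_F101L between the other 2. Against control it fell by 1.17 with SIRT5_WT and 0.96 with SIRT5_F101L on the log2 scale (SE 0.06 for both, edgeR adjusted p 2.05e-12 and 4.30e-11).

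Mmp9 (ENSMUSG00000017737), gelatinase B, the gelatinase of neutrophils, macrophages and osteoclasts, had 0, 0, 1 and 0 reads in control, 6, 0, 2 and 11 in SIRT5_WT and 4, 4, 7 and 8 in SIRT5_F101L. All SIRT5_F101L libraries exceeded all controls, whereas SIRT5_WT replicate 2 was at 0. The exact 2-sided permutation p was 0.143 for SIRT5_WT and 0.0286, the smallest possible, for SIRT5_F101L, or 0.214 and 0.114 adjusted over 6 tests. Without the filter on low counts, edgeR called Mmp9 in both comparisons (adjusted p 0.00714 and 0.00285). That fit took the spread between libraries as known. For Mmp2 with SIRT5_WT its SE was larger than in the main fit (0.0756 against 0.0620). The edgeR unadjusted p was still smaller, 6.26e-54 against 6.22e-14. The p-values of the unfiltered fit are therefore not comparable with those of the main fit.

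Mmp14 (ENSMUSG00000000957), the membrane-type enzyme and the pro-MMP2 activator, had the highest level of the set in control. It measured 1229.6, 1043, 1191 and 1197 CPM there, 604, 620.1, 643 and 600.1 CPM in SIRT5_WT and 644, 568, 546 and 578 CPM in SIRT5_F101L. The lowest control library was above the highest plasmid library, and the plasmid groups overlapped. Both plasmid groups were lower by nearly the same amount, at log2 values of -0.92 and -0.996 (SE 0.07 for both, edgeR adjusted p 2.40e-10 and 6.27e-11). Mmp14 fell together with its substrate Mmp2.

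Mmp12 (ENSMUSG00000049723), the macrophage elastase, was the tested member that passed in neither comparison. Its level was 6.21, 6.33, 4.74 and 4.75 CPM in control, 4.44, 3.91, 5.37 and 4.78 in SIRT5_WT and 6.89, 4.41, 6.81 and 5.10 in SIRT5_F101L. All 3 groups overlapped. Log2 values were -0.25 (95% interval -0.61 to 0.11, edgeR adjusted p 0.231) and 0.09 (95% interval -0.27 to 0.44, edgeR adjusted p 0.676). The second value had the opposite sign, -0.0026, without SIRT5_F101L replicate 3.

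Mmp19 (ENSMUSG00000025355) has no read in any library, and nothing is read from this. Its span in GENCODE M21 lies wholly inside another gene, and the genes overlapping it are Gm47093 and Tmem198b. Of the 1193 autosomal protein-coding genes that lie wholly inside another gene in that annotation, 87% were at 0 in all libraries, against 6.57% of the 8643 overlapped in part and 21.2% of the 10880 with no overlap.

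**Figure D2:**
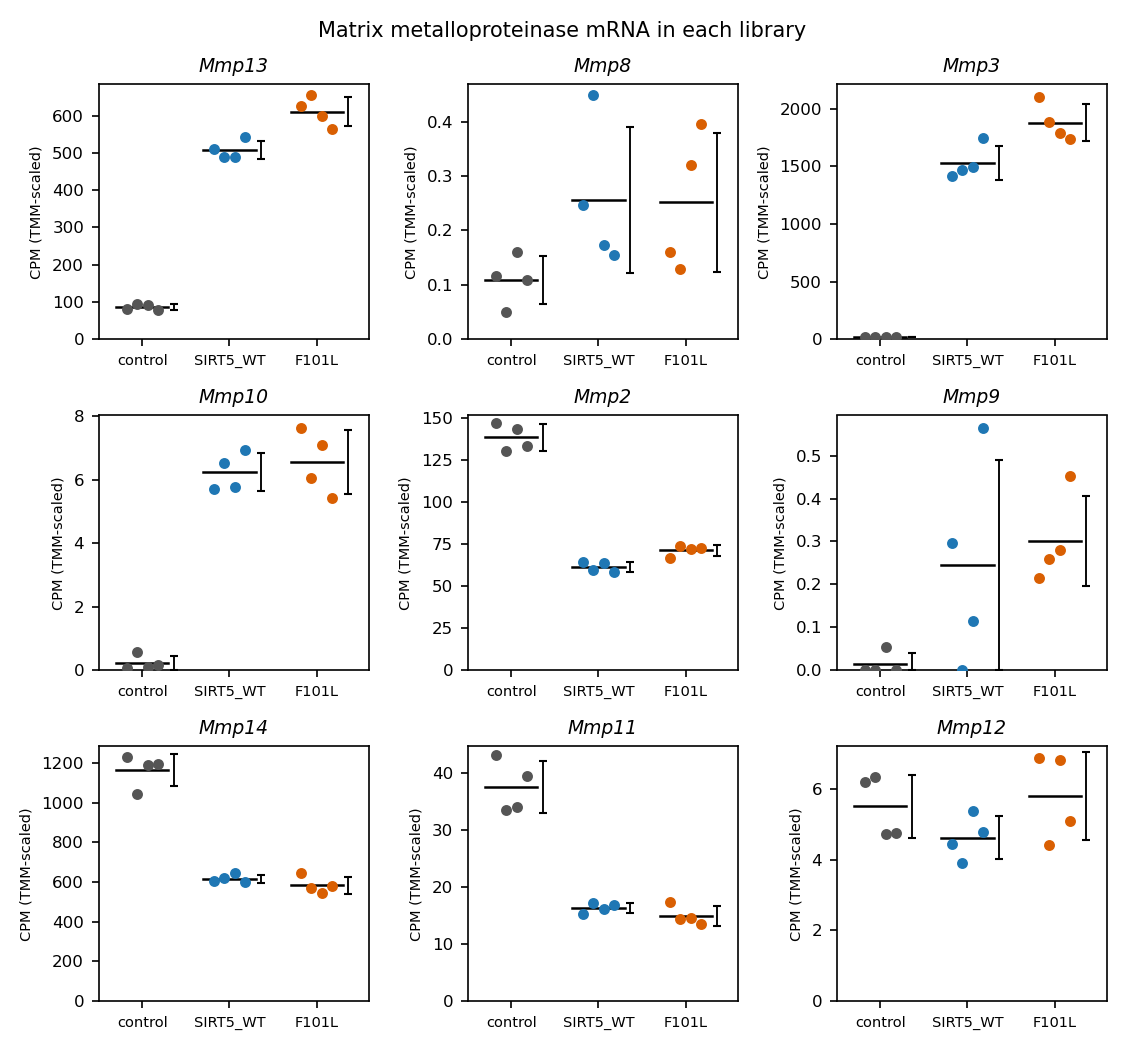
CPM of the 9 members with reads in each of the 12 libraries (y axes, TMM-scaled CPM from 0, a different scale in each panel; points are libraries in replicate order, lines are group means and bars are ± SD, n = 4; a bar that would go below 0 is cut at 0). Mmp13, Mmp3 and Mmp10 are higher and Mmp2, Mmp14 and Mmp11 lower in every plasmid library than in every control library, and Mmp12 overlaps.

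Levels of different genes can be set in order only per length, so CPM was divided by the length of each gene's merged exons (CPM per kb, 4 libraries a group). In control the order of levels was Mmp14 (195 CPM per kb), Mmp2 (41.1), Mmp13 (32.3), Mmp11 (13.5), Mmp3 (9.07) and Mmp12 (0.761), with no overlap between neighbours over the libraries. Mmp10, Mmp8 and Mmp9 came below them and stood at or under 3 counts in most control libraries, so they were given no order. In both plasmid groups the order became Mmp3, Mmp13, Mmp14, Mmp2, Mmp11, Mmp10 and Mmp12, again with no overlap between neighbours, and Mmp8 and Mmp9 came last and overlapped. Mmp3 stood at 851 ± 81.3 CPM per kb (SD, n = 4) in SIRT5_WT and 1044 ± 90.6 in SIRT5_F101L, above Mmp13 at 190.1 ± 9.37 and 229 ± 14.4. The level of Mmp3 over that of Mmp13 went from 0.285 ± 0.0544 in control to 4.47 ± 0.275 and 4.57 ± 0.310.

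Over all 23 family genes, Mmp14 made up 52.9% to 56.2% of the summed level per kb in control libraries, followed by Mmp23 at 14.6% to 15.5%, Mmp2 at 11.05% to 11.7% and Mmp13 at 8.03% to 10.8%. Mmp3 made up 2.38% to 2.84%. In the plasmid libraries Mmp3 made up 69.7% to 73.2% with SIRT5_WT and 72.7% to 74.7% with SIRT5_F101L. Mmp14 then made up 7.60% to 9.20% and 6.61% to 7.31%. The family shifted from one led by a membrane-bound enzyme to one led by a secreted stromelysin, with a collagenase as the next gene. Summed over the 10 members, the level was 1324 to 1523 CPM in control, 2626 to 2977 in SIRT5_WT and 2979 to 3476 in SIRT5_F101L. That is 0.139%, 0.280% and 0.324% of a library's counts on average.

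**Figure D3:**
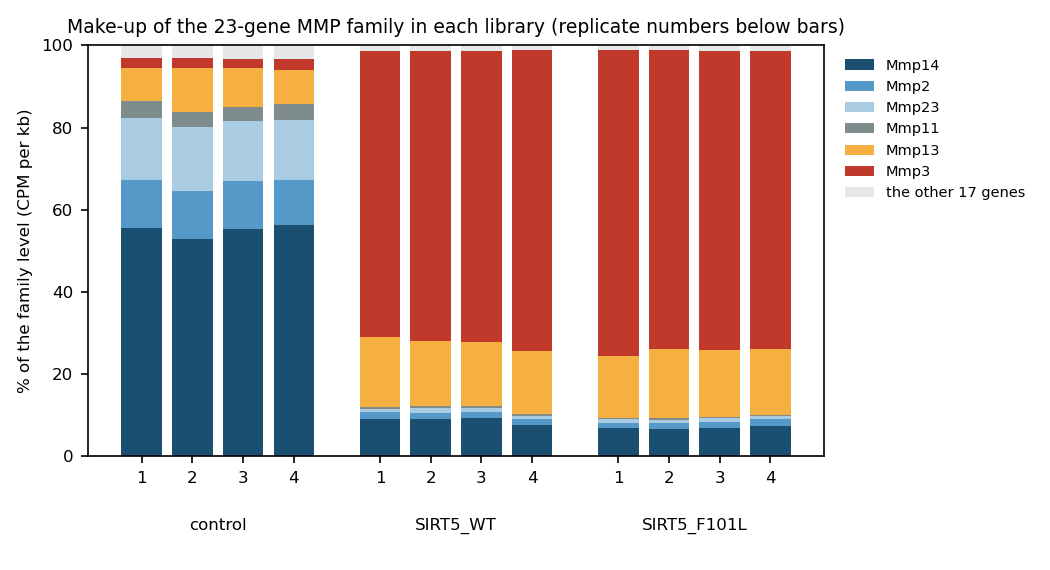
Share of each gene in the summed CPM per kb of the 23-gene MMP family (y axis, %), one bar for each library in replicate order. Mmp14 holds 52.9% to 56.2% of the family level in the 4 control libraries and Mmp3 holds 69.7% to 74.7% in the 8 plasmid libraries.

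Whether the mutant differed from the wild-type plasmid was tested in the same fit. No member passed (0 of 7), beside 0.0421% of all genes (6 of 14253; 0.0281% higher and 0.0140% lower); at an unadjusted p under 0.05 there were 3 members and 11.9% of all genes, and DESeq2 called 0 members. With no filter beyond 1 count, edgeR called Mmp3 (adjusted p 0.00211) and Mmp13 (adjusted p 0.0137). That fit took the spread between libraries as known, so these p-values are not comparable with those of the main fit. The 3 at an unadjusted p under 0.05 were Mmp13, with a log2 difference of SIRT5_F101L over SIRT5_WT of 0.27 (95% interval 0.12 to 0.41, edgeR adjusted p 0.241), Mmp3 at 0.30 (0.13 to 0.46, adjusted p 0.241) and Mmp2 at 0.21 (0.08 to 0.34, adjusted p 0.310). Mmp13 and Mmp2 were higher in all 4 SIRT5_F101L libraries than in all 4 SIRT5_WT libraries, as were 1.99% of all genes (4.02% in either direction), and Mmp3 was not. The other log2 differences were -0.08 for Mmp14 (95% interval -0.21 to 0.06), -0.13 for Mmp11 (-0.34 to 0.09), 0.34 for Mmp12 (-0.02 to 0.70) and 0.08 for Mmp10 (-0.33 to 0.48). The median over the 7 was 0.21, beside 0.00 over all genes.

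These calls depend on SIRT5_F101L replicate 1, the mutant library that lay beside SIRT5_WT, so leaving it out favours a difference. Without it, 15.2% of 14528 genes passed (6.66% higher and 8.57% lower) and 3 members were called higher with the mutant: Mmp2 at 0.25 (edgeR adjusted p 0.00673), Mmp3 at 0.24 (0.0154) and Mmp13 at 0.26 (0.00800). The log2 differences themselves moved little, from 0.21, 0.30 and 0.27. The slope of log2 CPM on log2 exon length also differed between the libraries: 0.635 in SIRT5_F101L replicate 1, 0.755 to 0.773 in the other SIRT5_F101L libraries, 0.655 to 0.730 in SIRT5_WT and 0.635 to 0.654 in control. With that slope as a covariate, Mmp3 (0.38, edgeR adjusted p 0.00207) and Mmp13 (0.29, 0.0280) passed with all 12 libraries, and no member passed once SIRT5_F101L replicate 1 was also left out. The part of that slope in the differences was otherwise not tested.

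Among the 13 other family genes, 9 were tested. Of these, 4 reached the filter only through the plasmid groups (Mmp1b, Mmp24 and Mmp25, which rose, and Mmp27, which did not pass), so a rise of the first 3 was set by the filter. Of the 5 others, 1 rose and 2 fell with SIRT5_WT (28.7% and 28.1% of all genes), and 0 rose and 1 fell with SIRT5_F101L (30.0% and 30.7%). Mmp23, whose enzyme lacks the usual hemopexin domain and carries a membrane anchor at its start, fell from 124 ± 4.55 CPM to 27.5 ± 2.92 and 25.7 ± 2.84 (SD, n = 4), log2 -2.17 and -2.26 (edgeR adjusted p 1.28e-14 and 6.57e-15). Mmp24, a membrane-type enzyme, rose from 0.135 ± 0.0332 to 1.47 ± 0.300 and 2.26 ± 0.554 CPM, on 2 to 3 reads in each control library. Mmp1b, a mouse relative of the interstitial collagenase, had 0, 2, 0 and 0 reads in control, 25, 18, 14 and 21 in SIRT5_WT and 28, 25, 41 and 24 in SIRT5_F101L, and 10.8% of its exon bases lie in exons of Mmp12. Mmp25 rose from 2 to 5 reads in control libraries to 5 to 33 and 10 to 20. Mmp28 (0.30, edgeR adjusted p 0.0184) and Mmp16 (-0.30, adjusted p 0.0142) passed with SIRT5_WT and had values of 0.15 (0.218) and -0.20 (0.0835) with SIRT5_F101L; the differences between the plasmids, -0.15 and 0.10, did not pass (adjusted p 0.552 and 0.700).

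**Figure D4:**
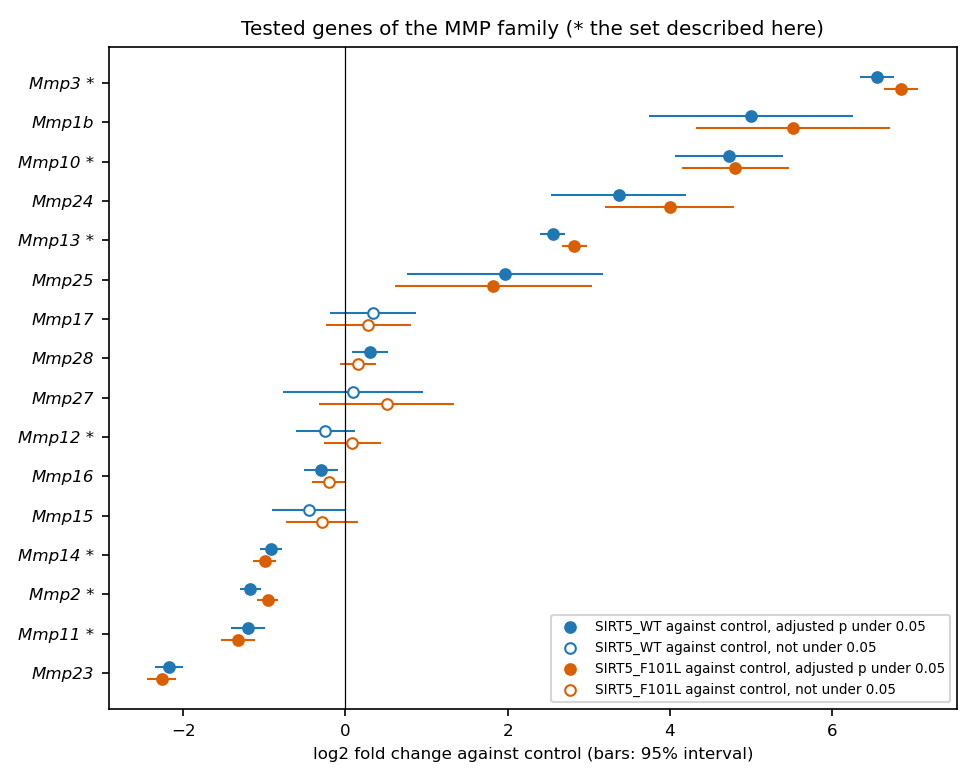
Log2 fold change against control (x axis) of the 16 tested family genes, with 95% intervals from edgeR; filled points have an adjusted p under 0.05 and asterisks mark the 7 tested members. Mmp3 is the highest at 6.55 and 6.85 and Mmp23 the lowest at -2.17 and -2.26; the value of Mmp1b rests on 2 control reads and depends on the prior count.

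Inhibitors and activators set how much proenzyme becomes active, so their RNA was followed too. TIMPs bind the active site of MMPs, and RECK is a membrane-anchored inhibitor of MMP2, MMP9 and MMP14. Of 6 inhibitor genes, Timp1, Timp3 and Timp4 were listed at 0 in every library. Timp1 is X-linked, and in GENCODE M21 all 3 lie wholly inside another gene. The 3 tested gave 0 higher and 2 lower in each comparison, at a median of -0.34 and -0.35. Of all genes tested, 28.7% were higher and 28.1% lower with SIRT5_WT, and 30.0% and 30.7% with SIRT5_F101L. Timp2 went from 5051 ± 285 CPM to 3985 ± 133 and 3956 ± 129 (SD, n = 4), log2 -0.34 and -0.35 (edgeR adjusted p 5.91e-05 and 3.85e-05). Reck went from 258 ± 23.05 to 72.3 ± 5.90 and 74.8 ± 7.80 CPM, log2 -1.83 and -1.78 (edgeR adjusted p 1.68e-13 and 2.39e-13). A2m, a plasma-type protease trap, was under 1.5 CPM in all libraries and did not pass. Per length, Timp2 stood 144 ± 12.4 times above Mmp3 in control libraries, 1.21 ± 0.126 times in SIRT5_WT and 0.977 ± 0.0783 times in SIRT5_F101L. Against Mmp14 the ratio was 6.64 ± 0.220, 9.88 ± 0.113 and 10.4 ± 0.495.

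Of the 12 activators and binding partners, 11 were tested; 8 rose and 2 fell in each comparison, at a median of 0.93 and 0.71, and Htra1 was listed at 0. Over all genes, 28.7% rose and 28.1% fell with SIRT5_WT, and 30.0% and 30.7% with SIRT5_F101L. Lcn2, a lipocalin that binds MMP9 and guards it from breakdown, rose from 4.36 ± 1.27 CPM to 310.2 ± 34.5 and 355 ± 50.1 (SD, n = 4), log2 6.16 and 6.35 (edgeR adjusted p 1.16e-17 and 6.68e-18). Plau, the urokinase that makes plasmin, the activator of pro-MMP3, rose by 1.92 and 1.90, and its receptor gene Plaur by 0.93 and 0.71. The proprotein convertase genes were split: Pcsk5 rose by 2.99 and 3.39 and Furin, which activates MMP14 and MMP11 inside the cell, by 0.84 and 0.71, while Pcsk6 fell by 1.30 and 1.39. Cd44, a surface receptor that docks MMP9 and MMP14, rose by 1.82 and 1.86, and Bsg, which encodes the MMP inducer CD147, fell by 0.44 and 0.46 on the log2 scale. All of these had an edgeR adjusted p under 0.05.

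For genes of proteins that MMPs cut, the median was -1.61 in each comparison. Of 13 genes 12 were tested (the X-linked Bgn, biglycan, was listed at 0), and 4 rose and 8 fell with SIRT5_WT (28.7% and 28.1% of all genes), and 3 and 8 with SIRT5_F101L (30.0% and 30.7%). Several of them are also chondrocyte markers. Col2a1, the substrate of MMP13 in cartilage, had log2 fold changes of -2.01 and -2.36, Comp -3.26 and -3.44, Matn3 -3.53 and -4.07, and Fn1, fibronectin, -0.94 and -0.83. Dcn, decorin, rose by 1.44 and 1.66 and Prg4, lubricin, by 0.41 and 0.54. So Mmp13 RNA rose where the RNA of its main cartilage substrate fell, which says nothing about the proteins.

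The transcription factors known at MMP promoters were 18 genes, of which 17 were tested, with 9 higher and 4 lower in each comparison and medians of 0.31 and 0.26, where 56.8% and 60.7% of all genes passed (28.7% and 30.0% higher, 28.1% and 30.7% lower). Among the AP-1 genes, Fosl1 rose by 1.89 and 1.81 and Fosl2 by 0.66 and 0.65, Fos fell by 0.75 and 0.75 and Jund by 0.32 and 0.41 on the log2 scale, and Jun (0.09 and -0.01), Junb (-0.06 and -0.09) and Fosb (0.25 and 0.26) did not pass. In GENCODE M21, 57.2% of Fosl1 and 52.6% of Jund exon bases lie in exons of another gene, so their counts are uncertain. Among the ETS genes, Etv4, which encodes PEA3, rose by 2.44 and 2.21 and Ets1 by 1.53 and 1.61, while Ets2 fell by 0.64 and 0.59. Nfkb1 rose by 0.94 and 1.06 and Rela by 0.31 and 0.26. Runx2, a known activator of Mmp13, had values of -0.11 and 0.13 that did not pass (edgeR adjusted p 0.476 and 0.351), and Epas1, which encodes HIF-2α, fell by 1.04 and 0.93.

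**Figure D5:**
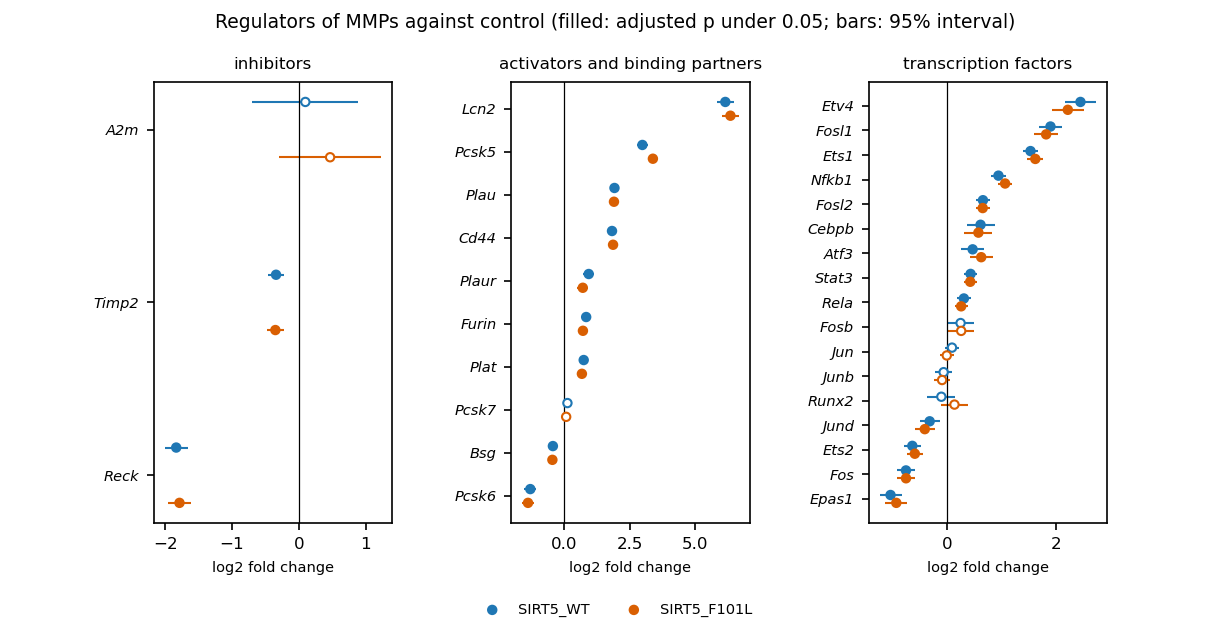
Log2 fold change against control (x axes, a different range in each panel) of the tested inhibitors, activators and binding partners (10 of the 11 tested are drawn), and transcription factors, with 95% intervals from edgeR; filled points have an adjusted p under 0.05. Reck and Timp2 lie below 0, Lcn2 is highest at 6.16 and 6.35, and the AP-1 and ETS genes lie on both sides of 0.

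Between the plasmids, 0 genes of these 4 lists and of the other family genes passed in edgeR. At an unadjusted p under 0.05 there were 2 of 11 activators, 6 of 12 substrates, 1 of 9 other family genes, 0 of 3 inhibitors and 0 of 17 transcription factors, beside 11.9% of all genes. Without SIRT5_F101L replicate 1, 2 of 11 activators, 4 of 12 substrates and 2 of 17 transcription factors passed, beside 15.2% of all genes. Of the 11 chondrocyte markers, some of them also substrates, Col11a2 was lower with SIRT5_F101L (-0.63, edgeR adjusted p 0.0339), 1 of 6 genes called in the whole table. At an unadjusted p under 0.05 there were 7 of these 11, 10 of 11 had values below 0, and the median was -0.34. Without SIRT5_F101L replicate 1, 4 passed, all lower. The part of these markers in the differences of the members between the plasmids was not tested.

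Some members are known mainly from other cells, so markers of those cells were read beside them. Neutrophil markers summed to 0.696 to 1.26 CPM in control, 45.9 to 58.6 in SIRT5_WT and 48.6 to 85.0 in SIRT5_F101L. Of the 10 genes in that list, S100a8, Camp and Ly6g reached the filter, and none of them through the control libraries, so that their direction was set by it. S100a8 made up most of the sum, at 48.6 ± 6.65 and 57.3 ± 15.9 CPM (SD, n = 4) in the plasmid groups. S100a9 was listed at 0, Ngp averaged 0.0826 CPM in control and 0.0304 and 0.0301 in the plasmid groups, and Elane and Mpo reached at most 0.260 and 0.534 CPM in any library. Macrophage markers went from 194 to 228 CPM in control to 93.7 to 106 and 90.9 to 120.1, with Itgam listed at 0. Of the 9 that reached the filter in control and in a plasmid group, 9 and 8 were lower, beside 28.1% and 30.7% of all genes. Ptprc was lower too, but reached the filter only through the control libraries. Mmp12 had the overlapping values given above. Osteoclast markers summed to 472 to 521, 458 to 498 and 434 to 478 CPM, nearly all of it Ctsk and Nfatc1, and Acp5 was listed at 0. Those genes moved in opposite directions, with Ctsk down (-0.50 and -0.66) and Nfatc1 up (1.55 and 1.60). Of the 5 tested, 1 rose and 1 fell with SIRT5_WT (28.7% and 28.1% of all genes). With SIRT5_F101L, 2 rose and 1 fell (30.0% and 30.7% of all genes), and there Atp6v0d2 also rose (0.87). Fibroblast markers summed to 18283 to 21741, 7539 to 8614 and 7762 to 8688 CPM, a sum carried by collagens. Of the 7 tested, 3 rose and 4 fell in each comparison, where 56.8% and 60.7% of all genes passed. Cd34 was up by 3.02 and 3.07 and Pdgfra by 0.39 and 0.62 on the log2 scale. Besides the collagens, Thy1 fell (-1.22 and -1.21), as did Dpt (-4.61 and -4.69), which reached the filter only through the control libraries. Osteoblast markers summed to 17.99 to 24.8, 4.11 to 4.78 and 3.51 to 5.21 CPM, and endothelial markers to 3.54 to 4.58, 3.23 to 4.16 and 3.17 to 4.81. The part of any of these cells in the changes of the members was not tested.

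Genes whose pattern was most like that of Mmp3 and of Mmp13 were found by the root mean square difference of log2 CPM, centred on each gene's mean, over 12 libraries and 9783 eligible genes. For Mmp3 they were Lcn2 (0.26), Cxcl3 (0.26), Ccl5 (0.27), S100a8 (0.31) and Oasl1 (0.34). These encode the lipocalin above, 2 chemokines, a calcium-binding alarmin and a protein of the interferon response. For Mmp13 they were Alcam (0.10), Uap1 (0.12), Pla2g4a (0.12), Grem1 (0.13) and Cp (0.13), which encode a cell adhesion molecule, an enzyme of UDP-N-acetylglucosamine synthesis, a cytosolic phospholipase, a BMP antagonist and ceruloplasmin.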

How the data were processed

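Poly(A)-selected RNA was sequenced in 12 libraries, and the authors deposited whole-number read counts per Ensembl gene ID for each. Per the submitters' processing notes, FastQC (0.11.9), HISAT2 (2.2.1), HTSeq (2.0.2) and DESeq2 (1.38.3) were used with GRCm39 (mm39); the annotation and strand setting are not given in the sources used here, so a gene cannot be told from an antisense partner. Symbols came from a supplied Ensembl name table (4981 of 57010 IDs had none).

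The counts were fitted with edgeR (4.0.16, R 4.3.3): TMM scaling, expression filter by group, 12 libraries with a mean for each of 3 groups, quasi-likelihood tests, 2-sided, Benjamini-Hochberg adjustment over 14253 genes and a threshold of 0.05. The SE is the log2 fold change over the square root of F. Mmp8, Mmp9 and Sirt5 were compared by exact permutation. Both plasmid groups share the 4 controls. Replicate numbers are those of accession order and were used to pair no libraries. The fit was checked on simulated data with known changes. Library totals of 15095357 to 24242139 set the precision; the floor of 3 counts covers counting error only.

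Members, gene lists and tests were chosen with earlier results of these data known. The genes named are the 10 members, Sirt5, the listed family genes, inhibitors, activators, substrates, transcription factors and cell markers, and the 5 genes nearest in pattern to Mmp3 and to Mmp13 (outside the members, leaving out predicted genes and those averaging under 5 CPM). Exon lengths and overlaps came from GENCODE M21 (GRCm38), copies from BLAST (2.17.0) and promoters from RefSeq (GRCm38.p6). Alternatives were leaving out each library, DESeq2 (1.42.0), a fit restricted to the 8 libraries of a comparison, a robust prior, a stricter and a looser filter on low counts, and scaling by RLE or the upper quartile; the length covariate, and the list counts without SIRT5_F101L replicate 1, were chosen after seeing the data. The values of 1 gene of the activator list are not reported here; it stays in that list's counts.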

Additional observations from a re-analysis of the deposited data

Results flagged for a closer look

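Of 27 groups of 4 libraries screened (9 members with reads, 3 groups each), 1 held a library far from the other 3 by Dixon's ratio, where chance alone gives 1.35. It was Mmp9 in control, where replicate 3 had 0.0532 CPM, a single read, and the other 3 libraries had 0.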

How the results depend on the processing

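Against control, the calls of all 7 tested members kept their direction and their side of the threshold under the 21 alternatives run for each comparison, the length covariate included, except that Mmp12 with SIRT5_F101L turned to -0.0026 without SIRT5_F101L replicate 3 (range with each library left out -0.0026 to 0.19). Leaving out each library in turn gave 7549 to 8747 genes with SIRT5_WT and 8030 to 9179 with SIRT5_F101L, with 6 members each time. With the length covariate and SIRT5_F101L replicate 1 left out, 3124 genes passed with SIRT5_F101L, and the 6 members were among them. Between the plasmids, where 0 members and 6 genes passed, 2 members and 354 genes passed with no filter beyond 1 count (Mmp3 at 0.29 and Mmp13 at 0.26), 2 genes with a robust prior, 39 with DESeq2, 2 in the 8 libraries compared, 2 members and 24 genes with the length covariate, and 10 genes with that covariate and SIRT5_F101L replicate 1 left out. Leaving out each library gave 0 to 3 members and 0 to 2212 genes, the most without SIRT5_F101L replicate 1, where Mmp10 turned to -0.0029 (range -0.0029 to 0.15); the cause was not tested. The fit with no filter beyond 1 count took the spread between libraries as known, so its counts are not comparable with the others. No paired analysis was possible because the labels give no replicate numbers. Depth limits Mmp8, Mmp9 and the control level of Mmp10, which stood at or under 3 counts in most control libraries.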
